A study of Mus musculus with 30 samples.

Results

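Kidney and brain of untreated mice were compared across genes on 4 arrays, the 2 arrays of kidney and the 2 of brain that the labels place at day 0, before any angiotensin II, out of 30 arrays in the series. The series followed brain, heart, kidney and vessel of 8 to 10 week old male C57BL/6 mice over days of angiotensin II infusion by osmotic pump. The day 0 groups shared strain, sex and age range and received no angiotensin II. The labels call the arrays of a group biological replicates, but do not say whether day 0 mice carried a pump or which organs came from the same mouse, so p-values measure the spread between these samples. RNA of the organs was extracted with TRIzol, and biotin-labelled RNA was hybridized to Affymetrix GeneChip Mouse Genome 430 2.0 arrays. Mice of days 1, 3 and 7 were given angiotensin II at 1500 ng/kg/min. Their kidney and brain arrays helped to estimate the spread between replicates but not the day 0 difference, and the differences at days 3 and 7 are quoted beside day 0 without a test.

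The kidney is a sheet of polarised epithelium folded into tubules. Its proximal tubule takes back sodium, glucose, phosphate and amino acids from the filtrate and makes glucose, the loop of Henle and distal tubule dilute the urine, and the collecting duct sets its final water, salt and acid content. Brain tissue is made of neurons, which signal through voltage-gated channels and synaptic vesicles, together with astrocytes, myelinating oligodendrocytes and microglia. Many of these tasks are served in both organs by related members of the same gene families, and chosen pairs of such members were compared as well.

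Of 14444 genes tested, 2113 (14.6%) were higher in kidney and 2632 (18.2%) were higher in brain. A gene was called higher when limma gave an adjusted p under 0.05 and the difference was at least 2-fold. Together these were 4745 genes (32.9%), while an adjusted p under 0.05 alone was reached by 67.8% of genes with all arrays and by 62.7% without brain replicate 1, and kidney and brain arrays did not overlap for 82.5%. At 16-fold or more there were 228 genes higher in kidney and 347 higher in brain. The median difference of all genes tested was 0.06 on the log2(intensity + 16) scale, on which every difference and fold below is given, differences as kidney minus brain. The split depended on the scale: centring the arrays on housekeeping genes moved the median of all genes to -0.18 and gave 1675 genes higher in kidney and 3301 higher in brain, so directions are relative to the deposited scale. Of the genes called, 44.5% were higher in kidney on the deposited scale and 33.7% after that centring. The centring used the mean of 9 housekeeping genes, whose median difference was 0.11. The largest of these was that of B2m (1.71), itself called higher in kidney, so the size of the shift rests in part on that gene. The gene lists described here held 767 distinct genes, of which 690 had a probe set that names 1 gene and 632 passed the filter on low intensity. The others were not analysed here. The list counts below are to be read against the 14.6% and 18.2% of all genes called on each side. In bulk tissue, fewer cells of a type and less RNA per cell cannot be told apart.

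**Figure D1:**
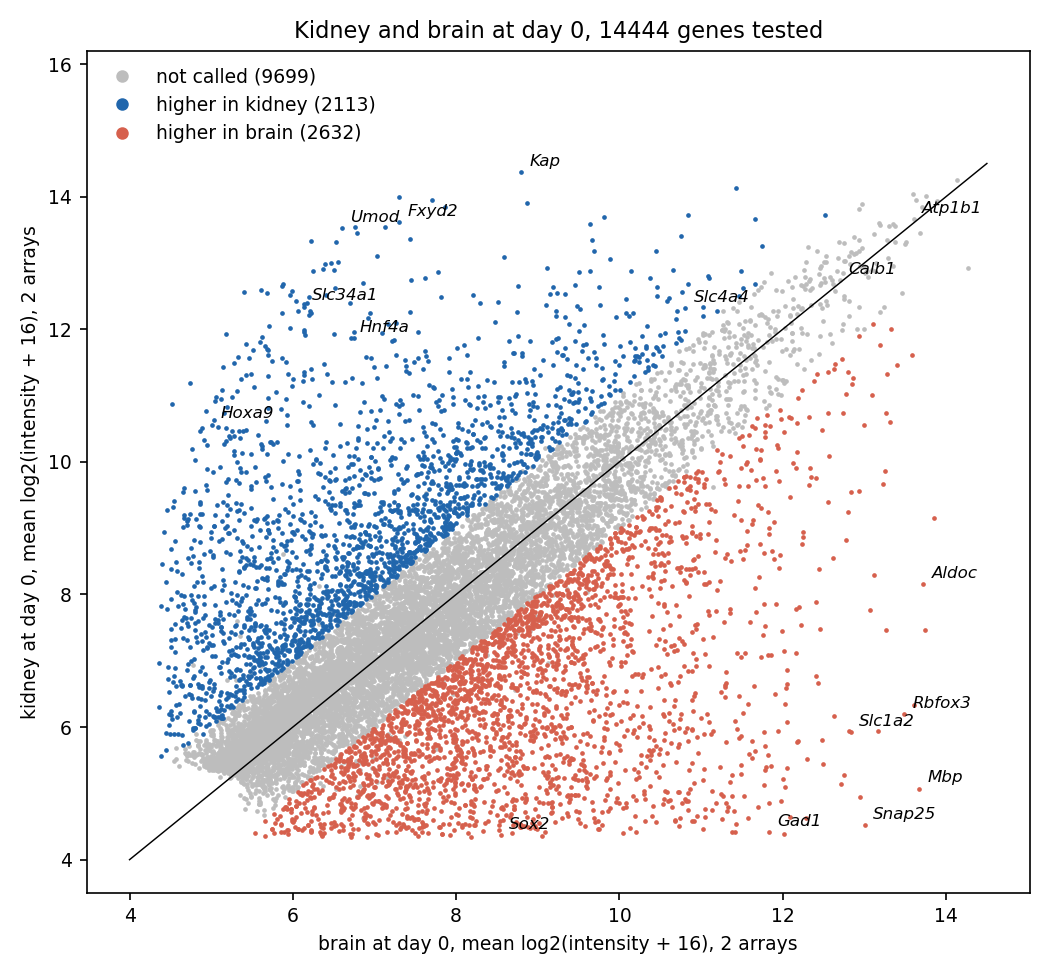
Mean log2(intensity + 16) of each of 14444 genes in kidney (vertical axis, 2 arrays) and brain (horizontal axis, 2 arrays) at day 0, with the line of equal values. Blue points are the 2113 genes called higher in kidney, red points the 2632 called higher in brain and grey points the 9699 others; Mbp and Snap25 lie farthest below the line, and Calb1 and Atp1b1 lie on it.

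The labelled tissues carried their defining markers. Kidney was called higher than brain for 32 of 32 proximal tubule transport genes tested, and brain higher than kidney for 29 of 29 genes of the neuronal cytoskeleton and axon. One brain array, replicate 1, stood apart, and the genes that showed it were picked after their values were seen. It carried kidney transcripts: Kap, an androgen-regulated kidney protein, read 21077 and 21077 in kidney and 4031 and 33.01 in brain. Uromodulin (Umod), made by the thick ascending limb of the loop of Henle, read 335 in brain replicate 1 against 10.9 in replicate 2. It also carried transcripts of liver, with albumin (Alb) at 1686 against 20.8, of pituitary, with growth hormone (Gh) at 5884 against 132, and of hindbrain or spinal cord position, with Hoxb5 at 399 against 12.8. Forebrain genes were low in it: Camk2a, a synaptic kinase of forebrain neurons, read 338 against 6240.1, and Egr3, an activity-induced transcription factor, read 25.6 against 2013.

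Across the 14444 genes the 2 brain arrays correlated at r = 0.953 and the 2 kidney arrays at r = 0.992, and 869 genes differed at least 2-fold between the brain arrays against 59 between the kidney arrays. Of the 228 genes at least 16-fold higher in kidney, 215 read higher in brain replicate 1 than in replicate 2. The share of all genes tested that read higher in replicate 1 was not counted. Among the 2113 genes higher in kidney, 129 read at least 2-fold higher in replicate 1 and 26 at least 2-fold lower. Among the 2632 higher in brain these were 164 and 282. The median intensity of the 228 genes was 59.6 in replicate 1, 18.2 in replicate 2 and 2148 in kidney. Replicate 1 held a median of 2.80% of the kidney value and replicate 2 held 1.26%. The replicate 2 median lay below the 40th percentile of that array (23.2), so its percentage is a value near the floor. Brain replicate 2 carried neutrophil transcripts, with S100a8 at 3658 against 384 and a summed intensity over 10 blood genes of 7965 against 1361, where kidney held 993 and 1432. Kidney replicate 2 carried adrenal transcripts, with Star, which feeds cholesterol to steroid synthesis, at 2147 against 14.7 and a sum over 11 adrenal genes of 6377 against 590.4, where brain held 1566 and 1117. A list of 12 fat and muscle genes summed to 429.9 and 431 in kidney and 517 and 491 in brain. The part of these transcripts in the results was not tested. Against brain replicate 2 alone, the counts were 2217 genes higher in kidney (15.3%) and 2646 higher in brain (18.3%). Of the genes called with all arrays, 2012 of 2113 and 2409 of 2632 were also called without it, and values without it are given below beside printed differences of called genes that moved by more than 1.5-fold.

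**Figure D2:**
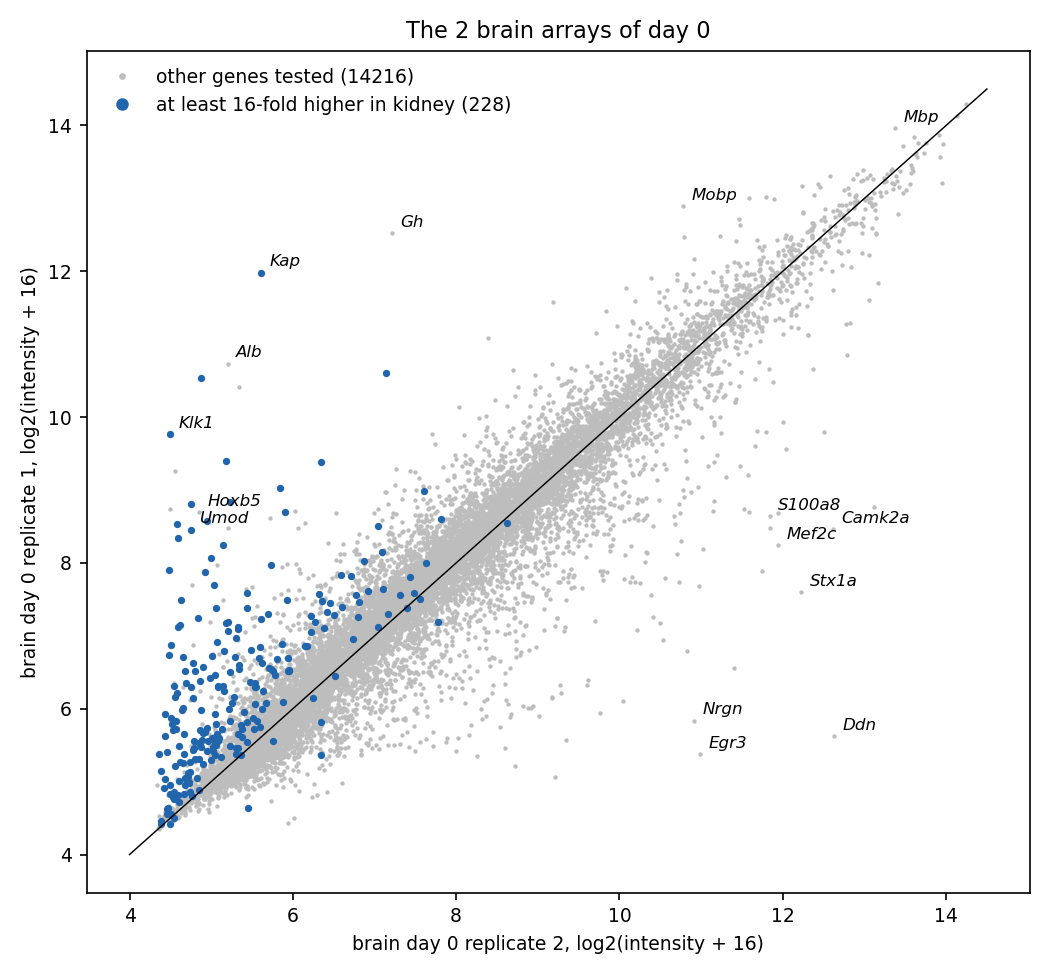
Log2(intensity + 16) of each gene tested in brain replicate 1 (vertical axis) and brain replicate 2 (horizontal axis) at day 0, with the line of equal values. Blue points are the 228 genes at least 16-fold higher in kidney, of which 215 lie above the line; Gh, Alb and Hoxb5 lie above it as well, and Camk2a, Stx1a, Nrgn and Egr3 lie below it.

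With all arrays, the largest difference toward kidney was that of Tmigd1, a membrane protein of the proximal tubule, which read 6114 and 5984 in kidney and 58.5 and 7.84 in brain. The difference was 7.17 ± 0.52 (SE), a 144-fold excess in kidney with an adjusted p of 9.48e-07, and 254-fold without brain replicate 1. Next came Ugt3a2, a sugar-transferring enzyme (138-fold), the arachidonic acid epoxygenase Cyp2j5 (126-fold) and Umod (122-fold). The 15 largest kidney differences ran from 95.6-fold to 144-fold, and they held the xenobiotic enzymes Sult1d1, Gsta2 and Akr1c21, the inositol oxygenase Miox, the gluconeogenic phosphatase Fbp1, the hydroxyacid oxidase Hao2 and the transporters Slc17a3 and Slc7a13. Both the sizes and the order turned on brain replicate 1. Without it the same 15 genes ran from 135-fold to 449.8-fold, and Akr1c21 (449.8-fold), Umod (439.6-fold), Keg1 (416-fold), Fbp1 (384-fold), Miox (319.9-fold) and Ugt3a2 (308-fold) stood above Tmigd1. Cyp2j5 and Slc7a13 were 275-fold and 181-fold higher without it.

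With all arrays, the largest difference toward brain was that of Mbp, the myelin basic protein, which read 15914 and 10584 in brain and 14.8 and 20.8 in kidney. It was 386-fold higher in brain, a difference of -8.59 ± 0.23 with an adjusted p of 1.64e-09. Snap25, a neuronal SNARE that drives vesicle fusion, read 7799 and 8666 in brain and 5.49 and 8.38 in kidney, a 359.9-fold difference. With brain replicate 1 left out, Snap25 (379-fold) stood above Mbp (315-fold). Nefl, the light neurofilament subunit, followed at 257-fold, then the calcium sensor Vsnl1 at 202-fold and the hindbrain and cerebellar transcription factor Zic1 at 199-fold. The cerebellar granule cell receptor subunit Gabra6 was 174-fold higher in brain at day 0, or 113-fold without brain replicate 1, but its difference was -2.65 at day 3 and -5.69 at day 7. Its intensity over the 6 brain arrays ran from 8.67 to 6708, and the lowest lay within the kidney range of 6.72 to 9.49. For Zic1 the values were -5.73 and -6.67, and for Snap25 they were -8.28 and -8.52.

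The promoters of 3 called genes are shown because each holds a motif of a factor known for its tissue, and they were chosen after the matches were seen. HNF1 and HNF4 factors drive genes of proximal tubule and liver, and REST silences neuronal genes outside the nervous system. The sequences are the 250 bases before the annotated start, from RefSeq on GRCm38.p6, printed 5′ to 3′ on the gene's strand with the motif match in capitals. G6pc, glucose-6-phosphatase, lies at chr11:101367466-101367715 on the plus strand and matched the HNF1 motif GTTAATNAT 221 bases before the start. Slc3a1, a subunit of the cystine transporter, lies at chr17:85028097-85028346 on the plus strand and matched the HNF4 motif CAAAGTCCA 39 bases before the start. Syn1, the vesicle protein synapsin I, lies at chrX:20920919-20921168 on the minus strand and matched TTCAGCACC, a part of the motif of REST, 232 bases before the start.
G6pc: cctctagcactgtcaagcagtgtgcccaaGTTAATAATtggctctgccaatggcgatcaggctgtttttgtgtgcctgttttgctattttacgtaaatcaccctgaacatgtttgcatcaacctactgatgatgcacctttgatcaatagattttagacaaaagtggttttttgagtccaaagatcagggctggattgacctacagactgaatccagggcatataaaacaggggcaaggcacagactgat
Slc3a1: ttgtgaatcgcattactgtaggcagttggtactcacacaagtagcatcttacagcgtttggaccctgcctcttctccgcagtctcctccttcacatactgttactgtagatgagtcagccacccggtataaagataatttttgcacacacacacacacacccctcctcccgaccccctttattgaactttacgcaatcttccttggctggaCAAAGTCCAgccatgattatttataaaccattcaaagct
Syn1: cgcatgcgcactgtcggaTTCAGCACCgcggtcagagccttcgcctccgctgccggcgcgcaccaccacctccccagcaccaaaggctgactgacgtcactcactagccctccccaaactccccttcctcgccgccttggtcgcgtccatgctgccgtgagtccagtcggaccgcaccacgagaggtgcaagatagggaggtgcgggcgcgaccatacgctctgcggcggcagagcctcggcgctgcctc

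The motifs were sought on both strands of windows reaching 250 bases before and 50 after the start. GTTAATNAT was held by 0.940% of 27025 genes with a promoter, by 1.65% of the genes called higher in kidney (28 of 1696) and by 0.341% of those higher in brain (7 of 2054). CAAAGTCCA was held by 0.555% of all, 1.12% of the kidney genes (19) and 0.195% of the brain genes (4), and this motif was chosen after its matches were seen. TTCAGCACC was held by 0.433% of all, 0.0590% of the kidney genes (1) and 0.828% of the brain genes (17), among them Nlgn1, Syn1 and Unc13a of the neuronal lists. The 27025 genes were not limited to those tested on the arrays, and the shares among genes tested were not counted. Most genes of either side held none of the 3 motifs, and a match is a description of letters, not of binding.

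All 32 proximal tubule transport genes tested were higher in kidney, by 1.52 to 6.78, with a median difference of 5.10 and 5.31 without brain replicate 1, against 0.06 for all genes. Slc34a1, the main sodium-phosphate cotransporter of the brush border, read 4974 and 5376 in kidney and 118 and 21.01 in brain, a difference of 6.20 ± 0.44 (adjusted p = 8.08e-07). Both kidney values lay above both brain values, as for each of the 32 genes. The heavy subunit Slc3a1 and its partner Slc7a9, which together take up cystine, differed by 6.39 ± 0.42 and 6.39 ± 0.32. Slc3a1 read 7561 and 7610.4 in kidney and 141 and 36.03 in brain. Slc7a9 read 4543 and 5196 in kidney and 74.5 and 21.5 in brain. For both, brain replicate 1 lay above replicate 2 and far below kidney. Without brain replicate 1 the differences of Slc34a1, Slc3a1 and Slc7a9 were 7.13, 7.19 and 7.02. The glucose transporters Slc5a2 (SGLT2) and Slc2a2 (GLUT2), which carry glucose across the luminal and basal membranes, differed by 5.10 ± 0.20 and 6.25 ± 0.33, the latter by 6.93 without that array.

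Organic anion and urate carriers differed strongly too: Slc22a12, a urate exchanger, by 5.60 ± 0.35, Slc22a6 (OAT1) by 4.33 ± 0.26 and Slc17a1, a phosphate and urate carrier, by 6.35 ± 0.52. The endocytic receptors Lrp2 (megalin) and Cubn (cubilin), which recover filtered protein, differed by 5.10 ± 0.31 and 5.26 ± 0.37. With brain replicate 1 left out, Slc22a12, Slc17a1, Lrp2 and Cubn differed by 6.32, 7.27, 5.74 and 5.97. The smallest difference of the group was that of Slc4a4, the sodium bicarbonate cotransporter, which astrocytes also express. It read 5202 and 5005 in kidney and 2407 and 1308 in brain and differed by 1.52 ± 0.32. The medians of the 32 genes were 5.29 at day 3 and 5.24 at day 7.

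**Figure D3:**
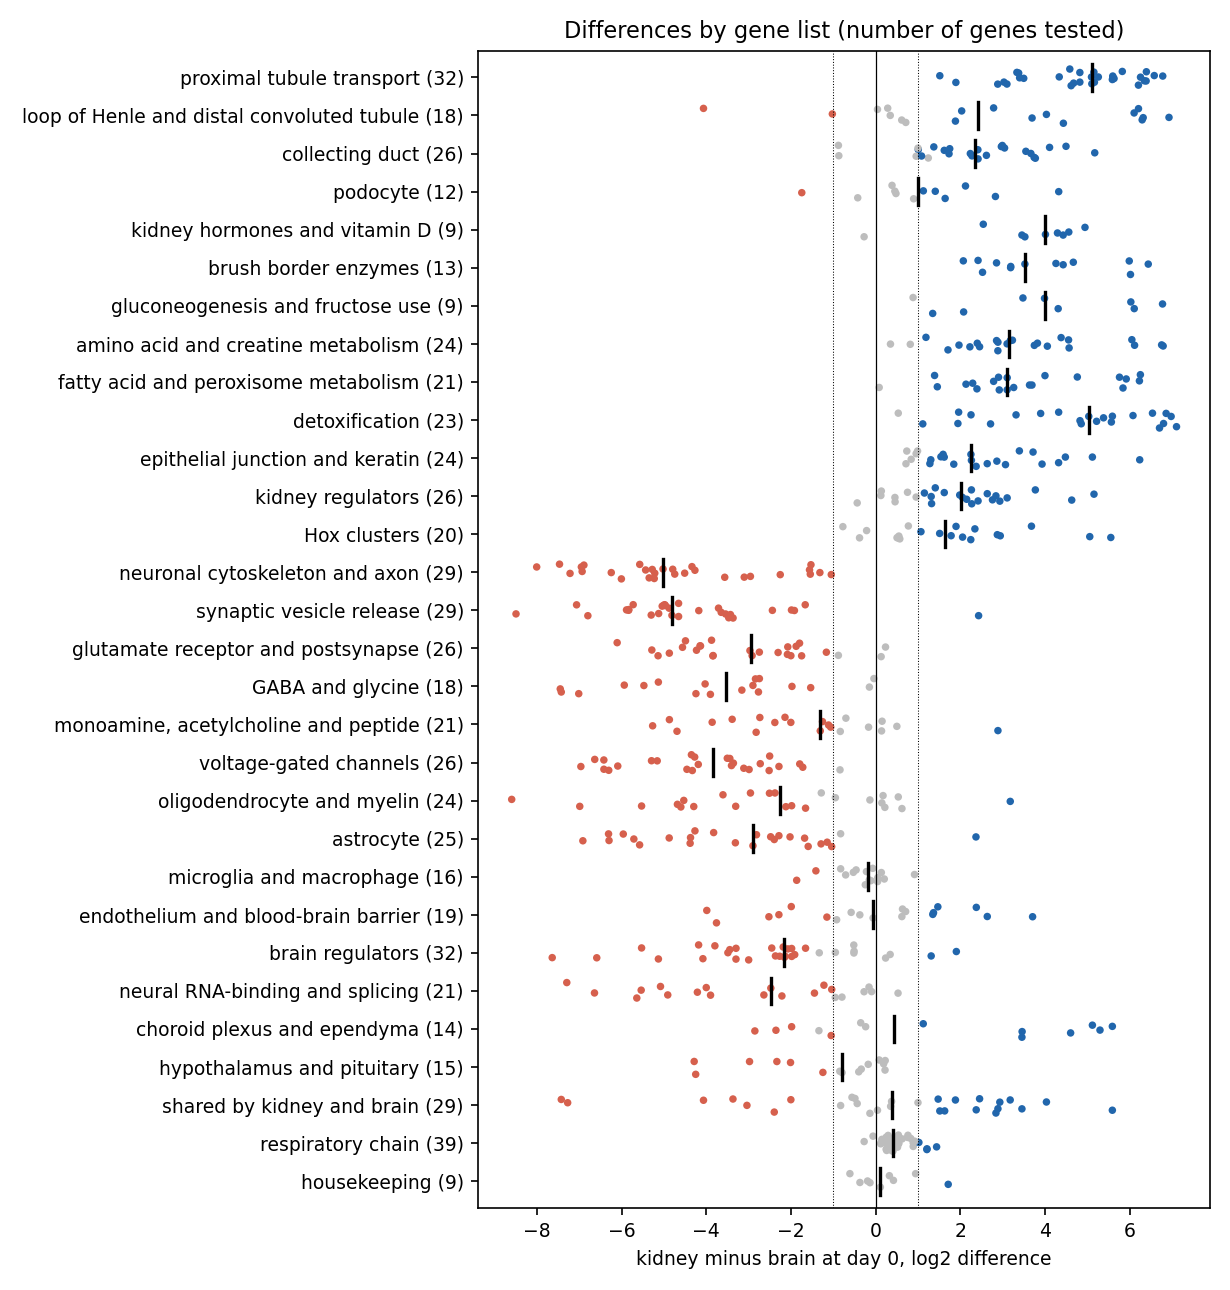
Kidney minus brain log2 difference at day 0 (horizontal axis) of every gene tested in each list (rows, number tested in brackets), with black bars at the medians and dotted lines at 2-fold. Blue points are called higher in kidney, red points higher in brain and grey points neither; the kidney lists at the top lie mostly to the right, the neuronal and glial lists to the left, and the microglial, endothelial, respiratory chain and housekeeping lists straddle or lie near 0.

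Genes of the loop of Henle and distal convoluted tubule were mixed: 11 of 18 were higher in kidney, 2 were higher in brain, and the median was 2.41. Slc12a1, the furosemide-sensitive sodium-potassium-chloride cotransporter of the thick ascending limb, read 2295 and 3299 in kidney and 36.6 and 7.71 in brain and differed by 6.29 ± 0.37. The potassium channel Kcnj1 (ROMK) differed by 4.43 ± 0.26, the thiazide-sensitive cotransporter Slc12a3 by 3.69 ± 0.19 and epidermal growth factor (Egf), shed by the distal tubule, by 6.10 ± 0.52, or 7.17 without brain replicate 1. Parvalbumin (Pvalb), a calcium buffer of the distal tubule and of inhibitory and Purkinje neurons, read 8136 and 3800.3 in brain and 397 and 253 in kidney and was 16.7-fold higher in brain. The kinase Stk39, which activates the cotransporters, was 2.03-fold higher in brain, and lost the call without brain replicate 1 (-0.88) and with the mean of its probe sets (-0.70). Calbindin (Calb1), of the distal tubule and of Purkinje neurons, read 7089 and 6606 in kidney and 9187 and 4797 in brain with a difference of 0.04 ± 0.28, so the groups overlapped.

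In the collecting duct list 21 of 26 genes were higher in kidney and none was called higher in brain, with a median of 2.34 (range -0.88 to 5.17). Against brain replicate 2 alone, these counts were 23 and 2. Hsd11b2, which shields the mineralocorticoid receptor from cortisol-type steroids, read 2444 and 2591 in kidney and 75.2 and 37.97 in brain and differed by 5.17 ± 0.20. The water channel Aqp2, the target of vasopressin, read 494 and 1364 in kidney and 61.2 and 40.6 in brain, with kidney replicate 2 the higher, and differed by 3.67 ± 0.41. Genes of intercalated cells, which handle acid and base, included the anion exchanger Slc4a1 (3.04 ± 0.23), the anion exchanger pendrin, Slc26a4 (3.74 ± 0.23), and their transcription factor Foxi1 (2.42 ± 0.13). The sodium channel subunits Scnn1a, Scnn1b and Scnn1g differed by 1.73, 1.75 and 2.27. The mineralocorticoid receptor itself, Nr3c2, read 106 and 132 in kidney and 193 and 274 in brain, a difference toward brain of -0.87 ± 0.17 that lay below 2-fold with all arrays and was -1.10 without brain replicate 1.

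Podocyte genes, from the cells that wrap the glomerular capillaries, gave 6 of 12 higher in kidney, 1 higher in brain and a median of 1.01. Tcf21, a podocyte and stromal transcription factor, read 563 and 533 in kidney and 14.97 and 9.63 in brain and differed by 4.32 ± 0.16. Podxl, the podocalyxin of foot processes, differed by 1.64 ± 0.17, and Wt1, the podocyte transcription factor, by 1.41 ± 0.14. Thsd7a, a podocyte membrane protein also present in neurons, was 3.35-fold higher in brain, but its other probe set differed by -0.08 and the call was lost with the mean of both (-0.91). Nephrin (Nphs1) read 55.7 and 59.2 in kidney and 20.9 and 26.1 in brain, under 2-fold apart. Synpo, an actin partner in foot processes and dendritic spines, was called higher in kidney by 2.12 ± 0.14, but another of its probe sets gave -1.57, so its direction was not settled by these arrays.

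Of 9 genes of kidney hormones and vitamin D, 8 were higher in kidney, with a median of 4.01. Cyp27b1 and Cyp24a1, which activate and inactivate vitamin D, differed by 2.54 ± 0.33 and 4.29 ± 0.60, the latter by 4.93 without brain replicate 1. The receptors Vdr for vitamin D and Pth1r for parathyroid hormone differed by 4.94 ± 0.28 and 4.56 ± 0.24. The angiotensin II receptor Agtr1a read 582 and 566 in kidney and 30.4 and 12.96 in brain, a difference of 4.01 ± 0.19, and Enpep, which cleaves angiotensin II, differed by 4.43 ± 0.21. Angiotensinogen (Agt), the precursor made by astrocytes in brain, read 253 and 258 in kidney and 560.3 and 170.3 in brain, and its groups overlapped. Brush border enzymes and scaffolds were higher in kidney in 13 of 13 genes tested (median 3.52, range 2.07 to 6.44), led by the meprin subunit Mep1b, which read 2628 and 2027 in kidney and 12.5 and 9.30 in brain, and the scaffold Pdzk1 (6.02 ± 0.43, or 6.91 without brain replicate 1).

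Of 9 genes of gluconeogenesis and fructose use, 8 were higher in kidney (median 3.99). G6pc, whose promoter is printed above, read 3087 and 2954 in kidney and 54.6 and 11.5 in brain and differed by 6.11 ± 0.36, or 6.79 without brain replicate 1. Pck1, which makes phosphoenolpyruvate for glucose synthesis, read 5248 and 4309 in kidney and 224 and 6.36 in brain, so brain replicate 1 lay far above replicate 2, and its difference of 6.03 ± 0.79 became 7.74 without that array. The fructose kinase Khk differed by 4.31 ± 0.21. Among 24 genes of amino acid and creatine metabolism 22 were higher in kidney (median 3.14, range 0.35 to 6.79), including the tyrosine-degrading Hgd (6.05 ± 0.41), the aminoacylase Acy3 (6.11 ± 0.51) and Gatm, the first enzyme of creatine synthesis (2.45 ± 0.39). Without brain replicate 1 these were 6.87, 7.09 and 3.07. Bhmt, which remethylates homocysteine, read 92.6 and 116 in kidney and 129.5 and 15.7 in brain, so its groups overlapped through brain replicate 1.

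Of 21 genes of fatty acid and peroxisome metabolism 20 were higher in kidney (median 3.11, range 0.08 to 6.25). The medium-chain dehydrogenase Acadm read 10919.6 and 9969.8 in kidney and 856 and 735 in brain and differed by 3.69 ± 0.12, and the transcription factor Ppara, which drives fatty acid oxidation, differed by 3.11 ± 0.22. Its coactivator Ppargc1a read 637 and 684 in kidney and 667 and 579.7 in brain, a difference of 0.08 ± 0.16 that was not called. Detoxification genes gave 22 of 23 higher in kidney (median 5.03, range 0.53 to 7.10), for example the cytochrome Cyp2e1, which read 8468 and 9182 in kidney and 439.6 and 21.6 in brain and differed by 6.08 ± 0.86 or, without brain replicate 1, 7.88, and the flavin monooxygenase Fmo1 (4.85 ± 0.17). Kap read the same value on both kidney arrays and differed by 5.57 ± 1.86 (adjusted p = 0.0226), and by 8.75 without brain replicate 1.

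Of 39 respiratory chain genes tested, 4 (10.3%, against 14.6% of all genes) were higher in kidney: Sdhb (1.02), Sdhc (1.44) and Sdhd (1.21) of complex II and Uqcrfs1 (1.21) of complex III. The median of the 39 was 0.41, and centring on housekeeping genes left it at 0.17 with 1 gene called. Against brain replicate 2 alone, there were 7 called, and without brain replicate 2 there were 2. The remaining complex II gene, Sdha, read 3688 and 3334 in kidney and 3555 and 2814 in brain and overlapped between the organs. Ndufa1 of complex I read 10419.6 and 10312 in kidney and 7962 and 7646 in brain, a difference of 0.41 ± 0.09, and Cox4i1 of complex IV read 10775 and 9545 in kidney and 10852 and 10326 in brain, a difference of -0.06 ± 0.09.

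Epithelial junction and keratin genes were higher in kidney in 19 of 24 cases, with a median of 2.26 (range 0.72 to 6.24). Cdh16, the kidney cadherin, read 5172 and 5409.6 in kidney and 109.6 and 23.5 in brain and differed by 6.24 ± 0.39, or 7.07 without brain replicate 1. The leaky tight junction claudin of the proximal tubule, Cldn2, differed by 5.12 ± 0.28, Epcam by 3.93 ± 0.27 and keratin 8 (Krt8) by 4.32 ± 0.18. Cgn and Ocln, tight junction proteins that brain barriers also use, differed by 0.72 ± 0.17 and 0.84 ± 0.29 and were not called. With brain replicate 1 left out, Ocln was called (1.22).

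Transcription and splicing regulators of the kidney list were higher in kidney in 19 of 26 genes tested, with a median of 2.02. Hnf4a, a nuclear receptor of the proximal tubule, read 3926 and 3515 in kidney and 165 and 44.7 in brain and differed by 5.16 ± 0.39, or 5.94 without brain replicate 1. The bile acid receptor Nr1h4 (FXR) differed by 4.63 ± 0.18, Tfcp2l1 of the collecting duct by 3.77 ± 0.25, Pax8 by 2.27 ± 0.20 and the epithelial splicing factors Esrp1 and Esrp2 by 1.99 ± 0.18 and 2.26 ± 0.13. Lhx1, used by the early kidney and by Purkinje neurons, read 161 and 201 in kidney and 484 and 124 in brain. Tfap2b, a distal nephron factor, read 274 and 326 in kidney and 317 and 141 in brain. Both overlapped between the organs. Maf, a proximal tubule factor, differed by 2.64 ± 0.20.

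Hox genes mark position along the body axis. Of 20 tested, 12 were higher in kidney and none in brain, with a median of 1.65, or 1.73 without brain replicate 1. A gene can pass the intensity filter on its kidney arrays alone. Without that filter, 12 of 33 Hox genes were higher in kidney and the median was 0.50. Hoxa9 read 1561 and 1430.5 in kidney and 22.6 and 10.8 in brain, a difference of 5.55 ± 0.15. Hoxd8 differed by 5.06 ± 0.20, Hoxd9 by 3.68 ± 0.15 and Hoxc10 by 2.94 ± 0.15. Hoxb5 read 42.3 and 54.2 in kidney and 399 and 12.8 in brain. Hoxc4 read 49.7 and 59.6 in kidney and 235 and 17.5 in brain. Brain replicate 1 was the highest array for both, and their signs turned without brain replicate 1, from -0.77 to 1.15 and from -0.38 to 1.07. Neither was called with all arrays.

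On the side of brain, all 29 genes tested of the neuronal cytoskeleton and axon were higher in brain, with a median of -5.02 (range -8.00 to -1.05). Neurofilament light (Nefl) read 10129.6 and 6107 in brain and 16.03 and 13.5 in kidney. Kif5a and Kif5c, neuronal kinesins of axonal transport, differed by -6.95 ± 0.23 and -7.46 ± 0.12. Stmn2 and Gap43, growth cone proteins, differed by -6.93 ± 0.23 and -5.57 ± 0.18. The smallest differences were those of Dcx, a protein of migrating young neurons (-1.05), and of Dpysl3 (-1.32). Neurogranin (Nrgn), a calmodulin buffer of forebrain dendrites, read 41.1 and 1911 in brain and 30.6 and 23.2 in kidney. Replicate 1 of brain lay close to kidney, and the difference moved from -2.96 (adjusted p = 0.0479) to -5.49 without it.

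Of 29 synaptic vesicle genes 28 were higher in brain (median -4.81, range -8.49 to 2.43). The calcium sensor Syt1 read 3639 and 9148 in brain and 24.95 and 29.9 in kidney and differed by -7.06 ± 0.37 or, without brain replicate 1, -7.72, the dynamin Dnm1 by -5.83 ± 0.10 and the active zone scaffold Rims1 by -6.79 ± 0.24. Syn1, whose promoter is printed above, read 1550.5 and 2309.6 in brain and 62.6 and 57.2 in kidney and differed by -4.65 ± 0.19. The SNARE Stx1a read 178 and 4772 in brain and 46.7 and 70.3 in kidney, so the brain replicates lay far apart, and its difference moved from -3.71 to -6.02 without replicate 1. Sypl, a relative of synaptophysin found outside neurons, was the member higher in kidney, at 2071 and 2644 in kidney and 530.1 and 333 in brain and a difference of 2.43 ± 0.20. The vesicular glutamate carrier Slc17a6 read 522 and 137 in brain and 6.68 and 7.10 in kidney, and its difference of -3.65 ± 0.65 became -2.74 without brain replicate 1. The vesicular GABA carrier Slc32a1 read 894 and 556 in brain and 8.31 and 8.85 in kidney.

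Receptors for glutamate and their postsynaptic partners were higher in brain in 23 of 26 genes (median -2.94, range -6.10 to 0.23). The AMPA receptor subunit Gria1 read 1702 and 1561 in brain and 8.24 and 7.65 in kidney and differed by -6.10 ± 0.26. Camk2a differed by -4.13 ± 0.97 with all arrays and by -6.21 without replicate 1, while its partner Camk2b differed by -3.84 ± 0.17 and -3.93. Dlg4 (PSD-95), the main postsynaptic scaffold, differed by -3.87 ± 0.29. Shank1, Nrxn3 and Cacng3 were not called, at 0.13, 0.23 and -0.88, but Cacng3 was called without brain replicate 1 (-1.44).

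Of 18 GABA and glycine genes 16 were higher in brain (median -3.53, range -7.45 to -0.04). Gad1, which makes GABA, read 3569 and 3702 in brain and 5.47 and 5.10 in kidney, a difference of -7.42 ± 0.10 with very close replicates. The glycine receptor subunit Glrb differed by -5.93 ± 0.18 and the GABA-B receptor Gabbr1 by -5.47 ± 0.11. Slc6a5, the glycine transporter of hindbrain and spinal neurons, read 375 and 36.6 in brain and 19.97 and 20.98 in kidney, and its difference of -1.98 became -0.53, with no call, without replicate 1. Gephyrin (Gphn), which anchors inhibitory receptors and also makes molybdenum cofactor outside the nervous system, read 656 and 579.7 in brain and 679 and 528 in kidney. The GABA transaminase Abat read 1685 and 1194 in brain and 1279 and 1279 in kidney. Both overlapped and were not called.

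Transmitter genes for monoamines, acetylcholine and peptides had 14 of 21 higher in brain, 1 higher in kidney and a median of -1.31. The serotonin receptor Htr2c read 878 and 859 in brain and 6.35 and 7.66 in kidney and differed by -5.27 ± 0.11. The peptide precursors Penk and Tac1 differed by -4.69 ± 0.45 and -4.87 ± 0.66, and both read higher in brain replicate 2. Without replicate 1 they differed by -5.00 and -6.11. Ddc, which makes dopamine and serotonin and is abundant in proximal tubule, read 1314 and 1257 in kidney and 271 and 91.7 in brain and was 7.40-fold higher in kidney, or 12.1-fold without brain replicate 1. Tyrosine hydroxylase (Th), the first enzyme of dopamine synthesis, read 30.6 and 69.9 in kidney and 72.96 and 40.7 in brain and overlapped. Npy read 433 and 1682 in brain and 71.1 and 307 in kidney, and its kidney value was higher in the array that carried adrenal transcripts. Its difference was -2.38 ± 0.90 with all arrays and -3.34 without brain replicate 1.

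Voltage-gated channels were higher in brain in 25 of 26 genes (median -3.85, range -6.96 to -0.84). The sodium channels Scn2a and Scn8a of axon initial segments differed by -6.96 ± 0.24 and -6.09 ± 0.16. Scn2a read 2323 and 2996 in brain and 5.02 and 5.62 in kidney. Scn8a read 1688 and 1960.1 in brain and 11.2 and 10.7 in kidney. Both brain arrays lay far above both kidney arrays for each. The potassium channels Kcnd2 and Kcna1 differed by -6.63 ± 0.20 and -6.42 ± 0.29, and the calcium channel Cacna1a by -2.99 ± 0.20. The pacemaker channel Hcn2 was not called (-0.84 ± 0.12).

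Oligodendrocyte genes gave 15 of 24 higher in brain and 1 higher in kidney (median -2.25). Mobp, a myelin protein, read 7597 and 1741 in brain and 12.5 and 13.2 in kidney and differed by -6.99 ± 0.66, or -5.93 without brain replicate 1. Brain replicate 1 read higher than replicate 2 across the list, with a summed intensity of 49625 against 23070, and kidney sums were 8415 and 9661. The median moved to -1.64 without replicate 1. Aspa, which splits N-acetylaspartate in oligodendrocytes and in proximal tubule, read 3477 and 3756 in kidney and 634 and 231 in brain and was 9.05-fold higher in kidney, or 14.7-fold without that array. Ugt8a and Mal, which serve myelin lipid and also kidney epithelium, overlapped and were not called. Ugt8a read 1176 and 1150.1 in kidney and 1579 and 399 in brain. Mal read 1997 and 2727 in kidney and 3986 and 1649 in brain.

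Astrocyte genes were higher in brain in 23 of 25 cases, with 1 higher in kidney and a median of -2.90 (range -6.91 to 2.37). The glutamate transporter Slc1a2 read 5846 and 9055 in brain and 47.4 and 41.8 in kidney and differed by -6.91 ± 0.22, and S100b differed by -6.29 ± 0.43. The folate enzyme Aldh1l1, used as an astrocyte marker in brain, read 1654 and 1346 in kidney and 315 and 241 in brain and was 5.17-fold higher in kidney. Glutamine synthetase (Glul) read 5169 and 6012 in brain and 3037 and 3238 in kidney, a difference of -0.83 ± 0.15 below 2-fold. Summed over the list, both brain arrays were alike, at 79160 and 79691 against 13248 and 13942 in kidney.

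Of 16 microglial and macrophage genes tested, 2 (12.5%, against 18.2% of all genes) were higher in brain, P2ry12 (-1.86 ± 0.20) and Gpr34 (-1.41 ± 0.29). None was called higher in kidney, and the median was -0.18. Without brain replicate 1 there were 4 higher in brain with a median of -0.50, and without replicate 2 there was 1 with a median of 0.20. With an added value of 64 none was called, including P2ry12 and Gpr34. The complement gene C1qa read 345 and 504 in brain and 396 and 354 in kidney. Csf1r, the receptor that macrophages need to survive, read 1186 and 2277 in brain and 1679 and 1730.4 in kidney. Both overlapped between the organs.

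Vessel lining genes went both ways, with a median of -0.06. Of 19 tested, 7 were not called, among them Mfsd2a and Ehd3. The markers Emcn and Plvap of fenestrated or open endothelium were higher in kidney, at 2.64 ± 0.25 and 2.38 ± 0.19, with Kdr (1.47), Tek (1.37) and Eng (1.35). The blood-brain barrier genes Slco1c1, a thyroid hormone carrier, Abcb1a, a drug efflux pump, and Cldn5, the barrier claudin, were higher in brain at -3.99 ± 0.14, -2.52 ± 0.18 and -1.99 ± 0.16. The efflux pump Abcg2 which also serves the proximal tubule, read 3271 and 3437 in kidney and 253 and 232 in brain and was higher in kidney by 3.71 ± 0.10. Of 19 genes tested 6 were called on each side (31.6%, against 14.6% of all genes for kidney and 18.2% for brain). Pecam1, a marker of endothelium in general, read 71.6 and 70.5 in kidney and 43.8 and 36.6 in brain, under 2-fold apart.

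Regulators of the brain list were higher in brain in 23 of 32 genes tested, and 2, Emx1 and Emx2, were higher in kidney (median -2.17). Sox2, kept on in neural stem cells and astrocytes, read 329 and 391 in brain and 4.99 and 4.37 in kidney and differed by -4.18 ± 0.11. Neurod1 read 3606 and 1788 in brain and 10.3 and 10.99 in kidney and differed by -6.58 ± 0.56, with -4.18 at day 3, when 1 brain array read 238. Myt1l, a factor that holds neuronal identity, differed by -3.80 ± 0.34. Emx2, a cortical and urogenital factor, read 95.8 and 167 in kidney and 6.68 and 48.4 in brain and differed by 1.91 ± 0.44, or 1.15 without brain replicate 1. Emx1, a cortical factor, read 173 and 171 in kidney and 43.2 and 80.7 in brain and lost its call without brain replicate 1 (0.96). Bcl11b, of deep cortex and striatum, read 108 and 1472 in brain and 149 and 161 in kidney and was called only without brain replicate 1 (-1.33 with all arrays, -3.13 without). Mef2c, a factor of cortical neurons, read 287 and 3921 in brain and 101 and 143 in kidney, and its difference went from -3.00 to -4.85.

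RNA-binding and splicing factors of neurons were higher in brain in 15 of 21 genes (median -2.47). Rbfox3 (NeuN), a splicing factor of mature neurons, read 10657 and 12354 in brain and 47.1 and 69.1 in kidney and differed by -7.29 ± 0.21. Elavl4, which stabilises neuronal messages, and Celf4 differed by -5.08 ± 0.12 and -6.64 ± 0.19. The broadly expressed Qk, Fmr1 and Mbnl2 were not called, at -0.16, -0.27 and -0.95, and neither was Srrm4 (-0.10). With brain replicate 1 left out, Mbnl2 was called (-1.02).

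**Figure D4:**
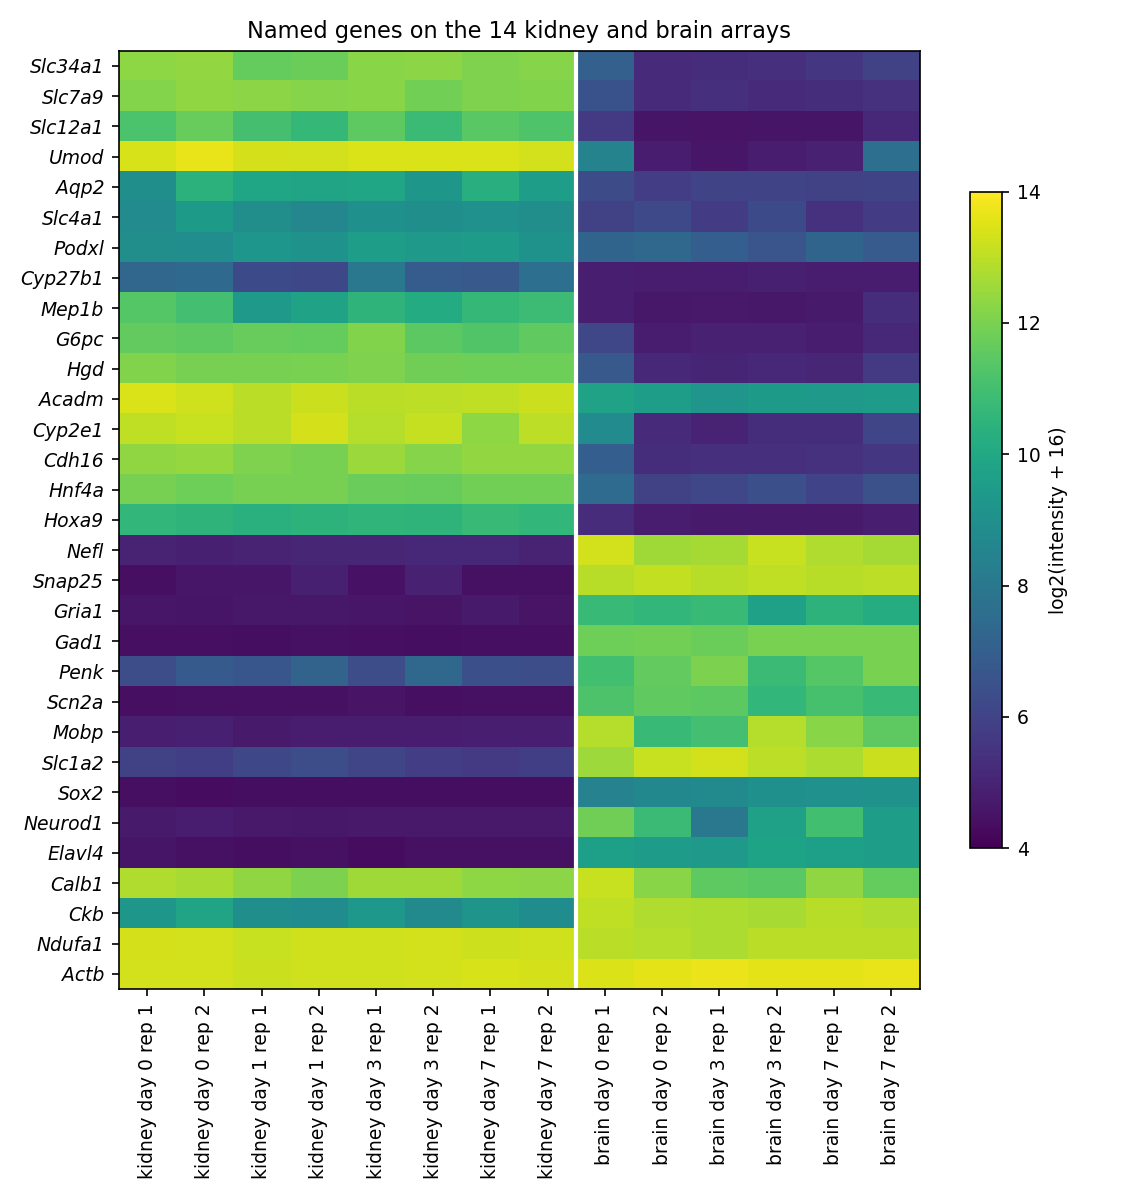
Log2(intensity + 16) by colour of 31 named genes (rows) on the 14 kidney and brain arrays (columns; the white line divides the organs), days 0 to 7. Kidney genes (top) are bright in the 8 kidney arrays and mostly dark in brain. Exceptions include a lighter column at brain day 0 replicate 1, and Umod (184) at brain day 7 replicate 2. Neuronal and glial genes show the reverse, and Calb1, Ndufa1 and Actb are bright in both organs.

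Of 32 pairs of related genes listed, 24 had both members measured, and in 16 of these the first was called higher in kidney and the second higher in brain. Taken singly, 19 first members were higher in kidney and 20 second members higher in brain, where 14.6% and 18.2% of all genes were. The pairs and their order were chosen with earlier results of these data known, so the count does not measure how often related genes are opposed. When a gene's probe sets were averaged, 12 of the 24 were opposed. Among cation-chloride cotransporters, Slc12a1 was higher in kidney by 6.29 and the neuronal potassium-chloride cotransporter Slc12a5, which sets neuronal chloride, read 5539.8 and 5869.6 in brain and 43.9 and 35.9 in kidney, a difference of -6.68 ± 0.10. Among glucose carriers, Slc2a2 was higher in kidney by 6.25 and the neuronal Slc2a3 was higher in brain, with a difference of -5.64 ± 0.15. Among carriers of the SLC17 family, Slc17a1 differed by 6.35 and the vesicular glutamate carrier Slc17a7 by -1.92 ± 0.39. Against brain replicate 2 alone, the differences were 7.27 and -2.51.

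Pairs of the membrane fusion and traffic machinery were also opposed. The widely expressed Snap23 read 425 and 485 in kidney and 61.5 and 46.2 in brain and differed by 2.76 ± 0.18, against -8.49 ± 0.15 for the neuronal Snap25. Vamp8, of epithelial secretion, differed by 2.75 ± 0.22 and Vamp2, of synaptic vesicles, by -3.43 ± 0.24. Stx3, an apical membrane SNARE, read 949 and 965 in kidney and 129 and 87.9 in brain and differed by 2.99 ± 0.18. The myosins Myo5b and Myo5a, which carry recycling and neuronal cargo, differed by 2.15 ± 0.55 and -3.48 ± 0.12, Myo5b by 1.39 without brain replicate 1. Cdh1 and Cdh2, the cadherins of epithelium and of neural tissue, differed by 3.07 ± 0.16 and -3.04 ± 0.23.

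Subunits of the proton pump gave the opposed pair Atp6v0a4 (2.99 ± 0.15) and Atp6v0a1 (-2.45 ± 0.13). The 3 other probe sets of Atp6v0a1 gave -0.60 to 0.37, and its call was lost with the mean of its probe sets (-0.75). Atp6v1c1, paired with Atp6v1c2, also lost its call there (-1.31 against -0.96). The intercalated cell subunits Atp6v1b1 and Atp6v0d2 were higher in kidney by 3.55 ± 0.16 and 2.97 ± 0.14, whereas their ubiquitous partners Atp6v1b2 and Atp6v0d1 differed by -0.75 ± 0.13 and -0.80 ± 0.14 and were not called. Atp6v1c2 stood just past the 2-fold line (1.01) and just under it without brain replicate 1 (0.99). For the sodium pump, the shared beta subunit Atp1b1 read 12187 and 13669 in kidney and 12126 and 12821 in brain and overlapped, while the glial Atp1b2 was 19.2-fold higher in brain. The gamma-type partner Fxyd2 was 79.7-fold higher in kidney, or 209-fold without brain replicate 1, and Fxyd7 was 7.03-fold higher in brain.

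Enzyme and RNA-binding pairs were opposed as well. Carnitine palmitoyltransferase divided into Cpt1a (2.92 ± 0.17) and the brain form Cpt1c (-3.19 ± 0.16), and glycogen phosphorylase into the liver form Pygl (1.66 ± 0.32) and the brain form Pygb (-2.13 ± 0.16). Ptbp1, a splicing repressor that neurons switch off, read 609 and 604 in kidney and 173 and 181 in brain and differed by 1.69 ± 0.09, and Ptbp2, which replaces it in neurons, read 101 and 118 in kidney and 672 and 686 in brain and differed by -2.47 ± 0.15. The 2 other probe sets of Ptbp1 gave 0.45 and 0.53, and its call was lost with the mean of its probe sets (0.89). Elavl1 (HuR) was called higher in kidney (1.40 ± 0.10) and Elavl3 higher in brain (-4.91 ± 0.15), but the mean over all Elavl1 probe sets gave -0.40, so the sign of Elavl1 rested on the probe set. The plasma membrane calcium pumps were not opposed: Atp2b1 and Atp2b2 were both higher in brain, at -2.35 ± 0.40 and -6.43 ± 0.16, Atp2b1 at -3.05 without brain replicate 1. Slc8a1 and Slc8a2, the sodium-calcium exchangers, differed by 0.28 ± 0.50 and -0.09 ± 0.14, and neither was called.

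**Figure D5:**
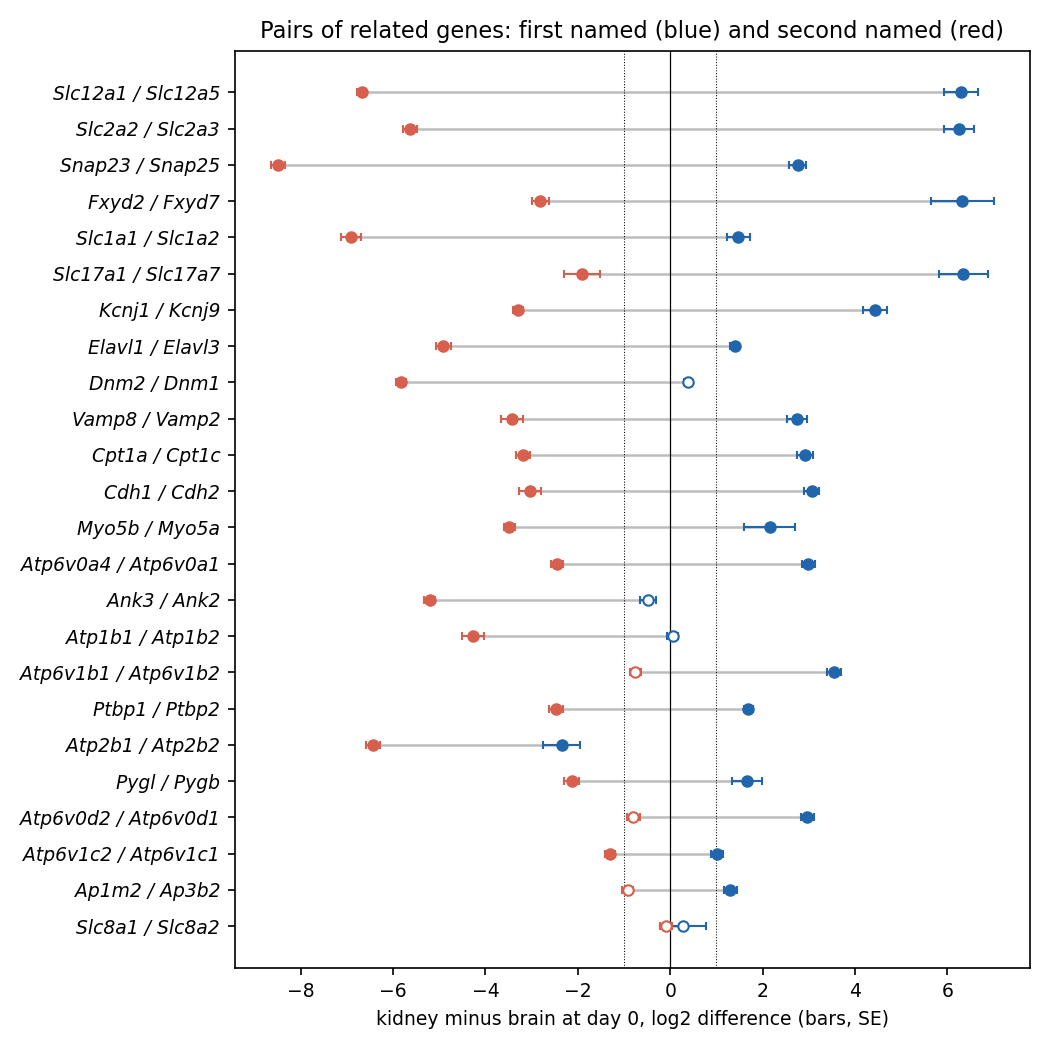
Kidney minus brain log2 difference at day 0 (horizontal axis; bars, SE) of both members of 24 gene pairs (rows), with dotted lines at 2-fold. Blue points are the member listed for kidney and red points the member listed for brain; filled points were called, open points were not, and in 16 pairs a filled blue point lies right of 0 and a filled red point left of it.

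Genes known from both organs separated in both directions, with a median of 0.38. Of 29 tested, 13 (44.8%, against 14.6% of all genes) were higher in kidney and 7 (24.1%, against 18.2%) in brain. Creatine kinase B (Ckb) which buffers cellular energy, read 8503 and 7145 in brain and 615 and 891 in kidney. The potassium channel Kcnj10, of astrocytes and distal tubule, read 2271 and 820.3 in brain and 296 and 367 in kidney. The water channel Aqp4, of astrocyte endfeet and collecting duct, read 2153 and 1330.2 in brain and 196 and 482 in kidney. These were higher in brain, with differences of -3.37 ± 0.21, -2.002 ± 0.51 and -2.39 ± 0.48, and Kcnj10 differed by -1.28 without brain replicate 1. Aqp1, of proximal tubule and choroid plexus, was higher in kidney by 5.59 ± 0.25, and the neuronal and epithelial glutamate transporter Slc1a1 by 1.48 ± 0.26. Klotho (Kl), a hormone coreceptor of distal tubule and choroid plexus, read 1646 and 1470.4 in kidney and 152 and 106 in brain and differed by 3.45 ± 0.17.

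Choroid plexus genes, from the secretory epithelium of the brain ventricles, likewise went both ways, with 7 of 14 higher in kidney and 4 higher in brain. The folate receptor Folr1 read 3991 and 3239 in kidney and 213 and 80.5 in brain and differed by 4.60 ± 0.40, or 5.23 without brain replicate 1. The potassium channel Kcnj13 read 499 and 470.1 in brain and 55.5 and 51.2 in kidney and differed by -2.85 ± 0.42. Transthyretin (Ttr), the thyroid hormone carrier made by choroid plexus, read 20010.1 and 19361 in brain and 8498 and 7103 in kidney and was not called (adjusted p = 0.437). In brain it read 81.5 and 2106 at day 3 and 18697 and 898 at day 7, a wide spread between arrays of 1 organ. Those later arrays entered the spread behind the p-value of Ttr, which thus does not measure the day 0 spread alone. Its day 0 readings did not overlap between the organs. Without brain replicate 1 the 4 genes higher in brain became 2, Kcne2 and Kcnj13. Of 15 hypothalamus and pituitary genes 6 were called higher in brain. Growth hormone and prolactin (Prl) were among them with all arrays, at -4.25 and -2.98, but not without replicate 1 (-1.59 and -0.44).

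Nearly all directions of the genes called at day 0 were also those of the arrays of days 3 and 7. All 2113 genes higher in kidney at day 0 had the same sign on both later days, and of the 2632 higher in brain 2616 did at day 3 and 2625 at day 7. At least 2-fold in the same direction at day 3 were 1963 of the kidney genes and 2223 of the brain genes. These mice had received angiotensin II, so the later arrays do not repeat the untreated state. The day 0 arrays do not enter the differences at days 3 and 7, but the later arrays helped to estimate the spread behind the calls. The share of all genes tested that kept its sign was not counted.

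Of 9 housekeeping genes tested, 1 (11.1%, against 32.9% of all genes in either direction) was called. It was B2m, a subunit of class I antigen presentation, which read 7265 and 6955 in kidney and 2331 and 1995 in brain. Actb read 10307 and 10141 in kidney and 11211 and 12155 in brain, a difference of -0.19 ± 0.09, and Rplp0 read 6567 and 6865 in kidney and 3581 and 3388 in brain, a difference of 0.94 ± 0.12 just under 2-fold.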

How the data were processed

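The authors deposited linear intensities per probe set. The submitters' processing notes name Affymetrix Expression Console for them, and the sources used here do not state its algorithm or normalization. Array medians of the day 0 arrays lay between 35.5 and 35.9. Of 45101 probe sets, 34945 named 1 gene by the platform annotation, 932 named several and 9160 named none. For 18193 genes, the probe set brightest on average over the 30 arrays stood for the gene.

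The deposited intensities were put on a log2 scale after adding 16, which understates differences of dim genes. Genes above the array's 40th percentile on at least 2 of the 4 day 0 arrays were tested, 14444 in all. The filter keeps a gene that is bright in 1 organ only. limma 3.58.1 under R 4.3.3 fitted group means to the 14 kidney and brain arrays (7 groups, 7 residual degrees of freedom), and the day 0 contrast was adjusted by the method of Benjamini and Hochberg over all genes tested. The script was tested on simulated data with independent normal noise, with 50 genes changed at each size. An adjusted p under 0.05 in the right direction was reached by 30% at 1.5-fold, 84% at 2-fold, 98% at 4-fold and 96% at 8-fold. Far fewer genes were changed there than were called here, and no simulated array stood apart. The simulation therefore does not measure the error rate in these data. The number of arrays limits the precision.

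The lists, pairs and array comparisons were chosen with earlier results of these data known. The rule for named genes was the 15 largest called differences in each direction with no overlap between arrays, all pair members, and up to 6 called genes per list and direction. Other genes were named after their values were seen, as were those that mark an array standing apart. Same-numbered arrays were not shown to be pairs, so the replicate number was not used as a block. Alternatives were the added value, filter, scaling, probe set choice, variance model, arrays in the fit and leaving out each array.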

Additional observations from a re-analysis of the deposited data

Results flagged for a closer look

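Arrays outside the day 0 comparison also carried transcripts of other organs. In kidney at day 1, replicate 2 read 12039.7 for albumin (Alb) and 7065 for apolipoprotein A1 (Apoa1), both made by liver. In brain at day 7, replicate 2 read 3511 for the kidney androgen-regulated protein Kap and 184 for uromodulin (Umod). These arrays enter the estimate of the spread, and the result without them is given with the processing alternatives.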

How the results depend on the processing

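The number of genes called stayed within 1.5 times of the reported 4745 under every alternative run, and 194 of 221 named genes that were called kept their call under all 18 settings that tested them. Leaving out each day 0 array gave between 4542 and 4863 genes, 2055 to 2217 of them higher in kidney and 2487 to 2646 higher in brain. Housekeeping centring moved the split to 1675 and 3301, a further quantile normalization to 2338 and 2375, an added value of 1 to 2403 and 2902, and an added value of 64 to 1632 and 2058. Taking the mean of a gene's probe sets gave 1744 and 2005, and turned Elavl1 to -0.40. It also ended the calls of the pair members Ptbp1, Atp6v0a1 and Atp6v1c1 and left 12 of 24 pairs opposed, against 16. Choosing the brightest probe set on the day 0 arrays turned Synpo to -1.57. Of 271 called genes of the lists and named genes with several probe sets, 123 had every other probe set at least 2-fold the same way, 2 had another at least 2-fold the other way, and the rest had at least 1 under 2-fold. For these reversals the cause was not tested.

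With the replicate number as a block 4736 genes were called, and same-numbered kidney and brain arrays deviated from their group means with r of 0.07 at day 0, 0.06 at day 3 and 0.03 at day 7 over genes, so the numbers were not shown to pair arrays. Chosen after seeing the data, the spread without kidney day 1 replicate 2 gave 4737 genes. Another fit chosen in this way left out brain day 0 replicate 1, kidney day 1 replicate 2 and brain day 7 replicate 2. The median difference of all genes tested was then 0.07, against 0.06 with all arrays. That fit was not free of other organs' transcripts. Kidney day 0 replicate 2 and kidney day 3 replicate 2 stayed in it, with summed adrenal intensities of 6377 and 11282. Probe sets near the 40th percentile, 22.8 to 24.5 on the day 0 arrays, limit what can be ranked among dim genes.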

Other observations

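Genes of brain regions varied between brain arrays of all days. Gabra6, of cerebellar granule cells, read 6708 and 2818 at day 0, 8.67 and 907 at day 3 and 2864 and 507 at day 7. Neurod1, a factor of granule cells, read 3606 and 1788, 238 and 840.1, and 1967 and 739 in the same order. Zic1 read 4991 and 3413, 661 and 1823, and 3392 and 1373. In each of these genes day 3 replicate 1 was the lowest array, and day 0 replicate 1 the highest.

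Kidney arrays varied in genes of fat. Adipoq, a hormone of fat cells, read 110.1 and 102 at day 0, 2318 and 3335 at day 1, 129 and 6176 at day 3 and 40.9 and 235 at day 7. Both day 0 arrays were low. No test was run on these values.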
